A study of Homo sapiens with 151 samples.

Results

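The promoters of the mitochondrial ribosomal protein genes were examined as 1 group of 78 of the 20033 protein-coding gene promoters annotated in GENCODE 44. A gene entered the group when its symbol begins with MRPL or MRPS and a number, with no use of any measured value. This gave 49 MRPL genes, called large subunit genes below, and 29 MRPS genes, called small subunit genes. The subunit is thus read from the symbol alone, and the place of each protein was not checked. A promoter was the canonical transcription start site (TSS) with 500 bp on either side, on hg38. A promoter was called bound by a DNA-associated protein (DAP) when at least 1 base of a peak of that DAP lay in this window.

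The peaks came from ChIP-seq in HepG2, a human liver cancer cell line, in which each DAP carried a FLAG epitope tag and was pulled down with an anti-FLAG antibody, of 1 lot for all preferred lists. Each DAP was represented by 1 peak list, 121 lists were marked by the authors as preferred data sets, 6 were marked as non-preferred, and the 24 other samples were input libraries, sheared crosslinked chromatin sequenced with no pulldown. The labels give this 1 line and no treatment, so the comparisons run between promoters and between lists, not between treatments. No DAP had a replicate list and read depth is unknown, so no value below has a replicate error. The 121 preferred lists held between 195 and 61748 peaks with a median of 8680, and an absent peak in a short list says little about the DAP.

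The mitochondrial ribosome translates the few messenger RNAs of the mitochondrial genome, which code for core subunits of the respiratory chain and of ATP synthase. Its RNAs are transcribed inside the organelle, but every one of its proteins is encoded in the nucleus, made on cytosolic ribosomes and imported. The large subunit forms peptide bonds and the small subunit decodes the messenger RNA, and cells that depend on oxidative metabolism, such as hepatocytes, need both. The nuclear genes for these proteins are spread over many chromosomes and are expressed in nearly all cell types from promoters rich in CpG.

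Letters of 2 kinds stood out in the promoters of these genes, and a few sequences are shown for that reason before the binding values. They run 5′ to 3′ along the gene, from 100 bases before the TSS to 30 bases from it onward, and are RefSeq promoter sequences of GRCh38.p14. Capitals mark CCGGAAG on either strand (CTTCCGG on the other), the core recognized by ETS proteins, and AAGATGGC on either strand (GCCATCTT on the other), letters recognized by YY1. A match is a description of the letters, not a binding site. The first 4 genes were among the 8 bound by most lists and carry the ETS letters less than 50 bases before the TSS. They lie at chr3:131502942-131503071 (minus strand), chr20:3045952-3046081 (plus strand), chr17:57850015-57850144 (minus strand) and chr22:19432445-19432574 (plus strand). Of the others among the 8, MRPL58 and MRPL27 also hold ETS letters in the stretch searched below. MRPL44, bound by most lists, and MRPL12 hold none there. The display thus does not show that ETS letters mark the most bound members.
MRPL3: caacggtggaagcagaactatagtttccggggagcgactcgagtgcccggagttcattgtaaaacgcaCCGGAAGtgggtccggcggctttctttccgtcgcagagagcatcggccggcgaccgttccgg
MRPS26: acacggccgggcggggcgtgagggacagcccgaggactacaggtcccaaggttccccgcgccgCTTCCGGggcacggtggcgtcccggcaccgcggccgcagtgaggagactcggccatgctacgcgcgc
MRPS23: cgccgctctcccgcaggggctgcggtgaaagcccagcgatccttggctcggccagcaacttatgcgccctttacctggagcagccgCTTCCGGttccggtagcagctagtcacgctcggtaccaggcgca
MRPL40: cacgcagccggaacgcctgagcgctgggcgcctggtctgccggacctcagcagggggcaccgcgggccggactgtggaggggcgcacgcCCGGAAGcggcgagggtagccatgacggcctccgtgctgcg

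MRPS7, at chr17:75261779-75261908 (plus strand), carries the YY1 type letters just after its TSS. MRPS10, at chr6:42217832-42217961 (minus strand), and MRPS18A, at chr6:43687762-43687891 (minus strand), carry the ETS letters before the TSS and the YY1 type letters after it, and were chosen for display after their letters were seen.
MRPS7: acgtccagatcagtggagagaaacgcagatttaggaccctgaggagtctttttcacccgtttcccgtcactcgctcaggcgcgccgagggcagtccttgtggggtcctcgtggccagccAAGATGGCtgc
MRPS10: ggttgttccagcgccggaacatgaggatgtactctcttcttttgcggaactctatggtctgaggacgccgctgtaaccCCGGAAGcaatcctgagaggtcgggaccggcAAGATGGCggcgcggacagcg
MRPS18A: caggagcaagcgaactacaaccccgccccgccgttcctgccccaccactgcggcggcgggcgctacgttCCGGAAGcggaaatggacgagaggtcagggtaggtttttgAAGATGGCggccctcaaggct

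MRPL28, at chr16:370509-370638 (minus strand), holds ETS letters just after its TSS and was bound by almost no list.
MRPL28: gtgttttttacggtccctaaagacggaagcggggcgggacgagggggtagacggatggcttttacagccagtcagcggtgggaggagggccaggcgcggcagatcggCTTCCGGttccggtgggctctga

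Of the 78 promoters, 77 were bound by at least 1 preferred list (98.7%), while 67.9% of all protein-coding promoters were. A promoter with peaks of at least 25% of the preferred lists, that is 31 or more, is called highly bound here, after the share the study uses for its highly occupied target sites. This held for 65 of the 78 (83.3%), beside 36.9% of all protein-coding promoters and 54.3% of the 13611 bound ones. The study defined its sites on merged peak regions over all its DAPs, not on promoter windows. These shares are thus not comparable with its own. The median was 49 lists per promoter, with quartiles of 35.3 and 64.5, beside medians of 15 for all protein-coding promoters and 34 for all bound ones.

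**Figure D1:**
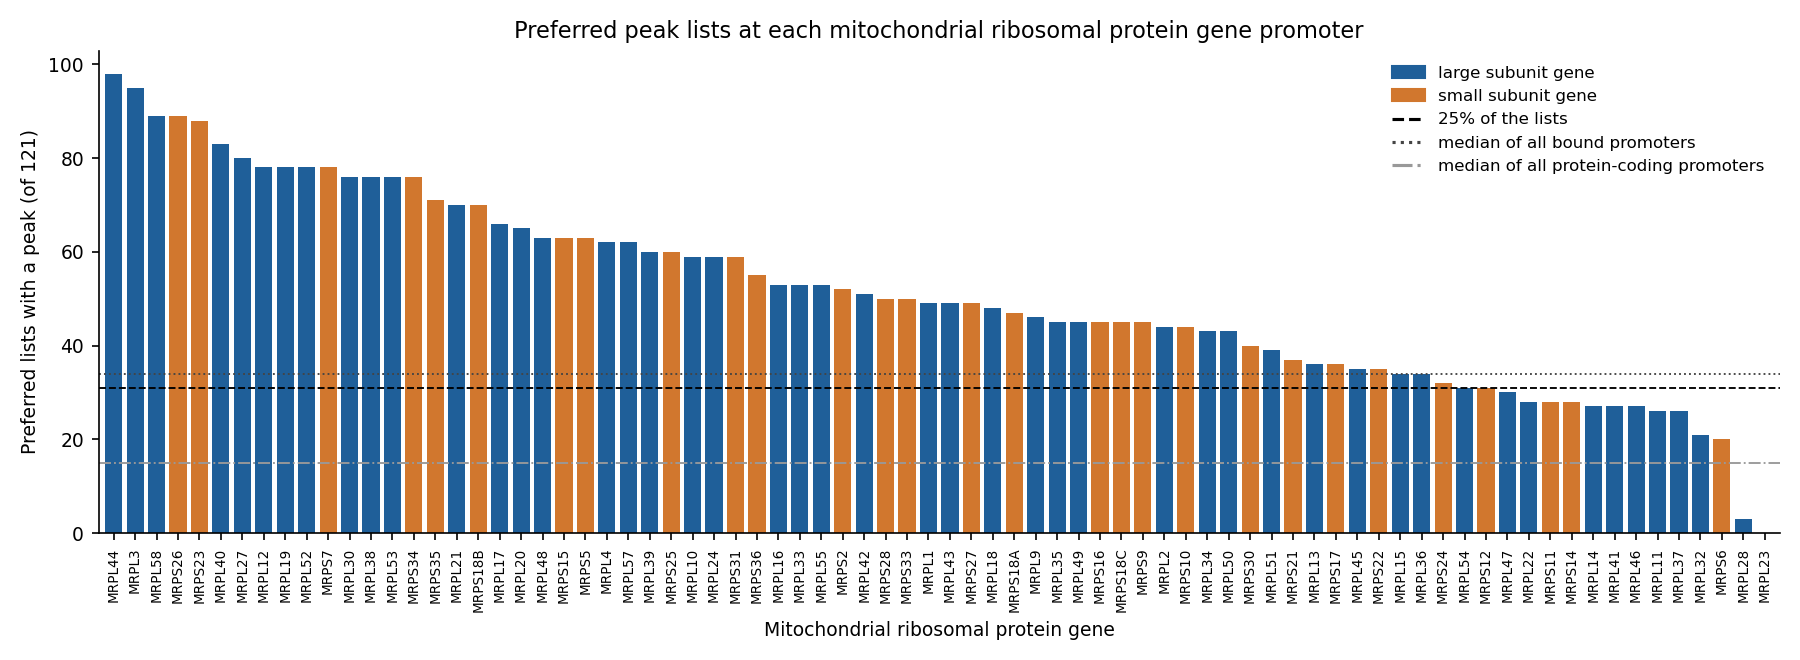
Number of the 121 preferred lists with a peak (vertical axis) at each of the 78 promoters (horizontal axis, in descending order). Bars are single counts without error, colored by the subunit read from the symbol. The lines mark 31 lists and the medians of 34 and 15, and the bars fall from 98 at MRPL44 to 0 at MRPL23.

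The promoter bound by most lists was that of MRPL44, which encodes a large subunit protein with a ribonuclease III fold, on chromosome 2 with its TSS at 223957463, with 98 of the 121 lists. MRPL3, the homolog of bacterial L3 near the peptidyl transferase center, followed with 95. MRPL58, a large subunit protein related to peptidyl-tRNA hydrolases, and MRPS26, a small subunit protein without a bacterial counterpart, each had 89. MRPS23 had 88, MRPL40 had 83 and MRPL27, the homolog of bacterial L27, had 80. MRPL12, the protein of the flexible stalk that recruits translation factors, had 78, a number shared with MRPL19, MRPL52 and MRPS7. These 8 promoters lie on chromosomes 2, 3, 17, 20 and 22, and 4 of them on chromosome 17.

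The low end was set by 2 promoters. MRPL23, the homolog of bacterial L23 beside the exit tunnel, has its TSS on chromosome 11 at 1947332 and was the 1 promoter without a peak of any preferred list; a count of 0 of 121 lists allows a share of up to 2.48% by the floor of 3 counts. No list had a peak at any of the other annotated protein-coding starts of MRPL23, 1 list had a summit within 5000 bp of the canonical TSS and 3 had one within 10000 bp. MRPL28, on chromosome 16 with its TSS at 370538, had peaks of 3 lists, NCOA2, PBX3 and SALL1. Around MRPL28 the number of lists with a summit was also 3 within 5000 bp but 46 within 10000 bp. The next lowest promoters were MRPS6 with 20 lists and MRPL32 with 21. Whether reads can be placed as well at MRPL23 and MRPL28 as elsewhere was not tested.

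Both subunits, as read from the symbols, had the same median of 49 lists. Large subunit promoters averaged 51.4 ± 22.6 lists (SD, n = 49) and 39 of 49 were highly bound (79.6%), and small subunit promoters averaged 51.2 ± 18.1 lists (SD, n = 29) and 26 of 29 were highly bound (89.7%). The spread within each subunit was far larger than the difference between the means. The SD here describes how genes differ, since each gene was measured once.

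The choice of start mattered for a few genes. With any annotated protein-coding start allowed, MRPS27 went from 49 to 73 lists, MRPL36 from 34 to 55, MRPL34 from 43 to 52 and MRPS2 from 52 to 58, and the count of highly bound promoters stayed at 65.

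Many of these promoters are shared with a neighbor. A head-to-head partner is a protein-coding gene that starts at most 1000 bp upstream and runs the other way. One was present for 26 of 78 (33.3%), beside 13.4% of all bound promoters. Windows that also held another protein-coding TSS numbered 23 (29.5%), beside 16.2% of all bound promoters. A peak in such a window cannot be assigned to 1 of the genes. MRPL27 starts 45 bp from EME1, a gene of a structure-specific endonuclease, and both had the same 80 lists. MRPL30 starts 126 bp from MITD1 with 76 lists at both. MRPL21 starts 59 bp from IGHMBP2, a helicase gene, with 70 lists at both, and MRPS7 starts 273 bp from GGA3 with 78 lists at both. Partners with mitochondrial roles included TWNK, the mitochondrial DNA helicase, 46 bp from MRPL43 with 48 lists at both, NDUFB5, a complex I subunit, 156 bp from MRPL47 with 30 lists at both, and SARS2, the mitochondrial seryl-tRNA synthetase, 181 bp from MRPS12 with 31 lists at both. FAU, a cytosolic ribosomal protein gene, starts 187 bp from MRPL49 and the same 45 lists had a peak at both. One pair lies within the group, since MRPL46 and MRPS11 start 320 bp apart on chromosome 15 and shared 27 lists of 27 and 28. MRPL40 and HIRA, 812 bp apart, shared 50 lists of 83 and 52.

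The sharing of windows did not go with higher counts here. The 55 promoters with no other protein-coding TSS in the window had a median of 51 lists and 49 were highly bound (89.1%), and the 23 with a shared window had a median of 45 and 16 were highly bound (69.6%). Among all bound promoters the order was the other way, with medians of 31 without and 45 with a shared window. These are descriptions of 1 set of lists and the difference was not tested.

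Each list was then set against its own frequency at other promoters. The ratio of a list is the share of the 77 bound members of the group with its peak divided by the share of all 13611 bound protein-coding promoters with its peak. A list was called enriched at a ratio of 1.5 or more with at least 10 members bound. This held for 52 of the 121 lists, but the median ratio over all lists was 1.49 and 114 lists had a ratio above 1, so the threshold lies close to the middle of the lists. The intervals given with the shares are 95% Wilson intervals; they cover counting error only, and promoters of 1 set of lists are not independent replicates.

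The highest ratios among lists with at least 10 members bound belonged to zinc finger proteins, an E2F protein and an ETS protein. ZNF140, a KRAB zinc finger protein, had peaks at 30 of 77 (39.0%, interval 28.8 to 50.1), where 15.3% of all bound promoters had one, a ratio of 2.55. MZF1, a SCAN zinc finger protein, had peaks at 28 (36.4%, interval 26.5 to 47.5) beside 14.6%, a ratio of 2.50. E2F7, an atypical E2F protein that represses cell cycle genes, had peaks at 21 (27.3%, interval 18.6 to 38.1) beside 11.1%, a ratio of 2.46. ELK4, an ETS protein of the ternary complex factors, had peaks at 24 (31.2%, interval 21.9 to 42.2) beside 13.2%, a ratio of 2.36. ZNF284, another KRAB zinc finger protein, had peaks at 21 beside a background of 12%, a ratio of 2.27. NPAS2, a clock protein of the bHLH-PAS family, had peaks at 24 beside 13.7%, also a ratio of 2.27.

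The rest of the 12 highest lists lay between ratios of 2.13 and 2.25. PRMT5, an arginine methyltransferase, had peaks at 31 members (40.3%) beside 17.9% of all bound promoters. ZFP90 had peaks at 34 (44.2%) beside 19.8% and CENPBD1 at 21 (27.3%) beside 12.3%. PEG3, a zinc finger protein of an imprinted gene, had peaks at 28 (36.4%) beside 16.8%. ZNF45 had peaks at 14 (18.2%) beside 8.5% and EBF1, known for its part in B cell development, at 21 (27.3%) beside 12.8%. The lower bound of the Wilson interval was above the background share for each of these 12 lists. They were picked for their ratios, so the intervals are no separate support.

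**Figure D2:**
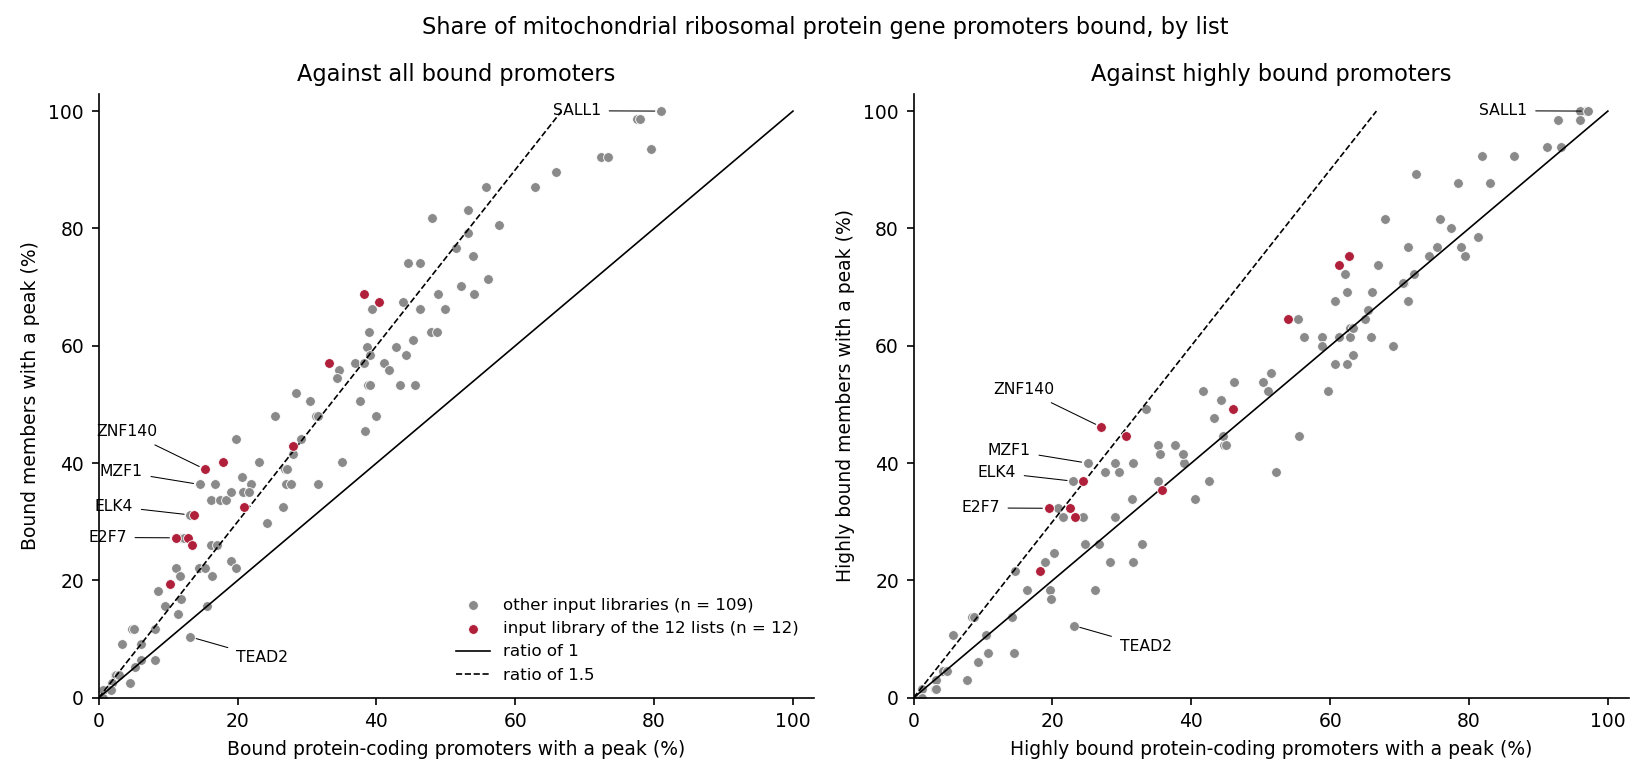
Share of bound members with a peak (vertical axes, percent) against the share of comparison promoters with a peak (horizontal axes, percent), 1 point per preferred list, with all bound promoters on the left and highly bound ones on the right. Red points are 12 lists that share 1 input library, and the lines mark ratios of 1 and 1.5; most points lie above a ratio of 1 on the left (114 of 121), and on the right the median ratio is 1.05.

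The lists with the highest ratios were not spread evenly over the input libraries. One input library served 12 preferred lists alone, and all 12 were enriched, with a median ratio of 1.91 and a range from 1.53 to 2.55. Of the 109 other lists 40 were enriched, with a median ratio of 1.44. ZNF140, E2F7, NPAS2, PRMT5 and EBF1, 5 of the 12 highest lists, used this input, and ZFP90 used it together with a second one. Within this input the ratio of ZNF140 stood beside a median of 1.89 for its 11 other lists. ELK4 and PEG3 came with another input, in which the 14 other lists had a median ratio of 1.44 in each case, and ZNF284 and ZNF45 came with yet another, in which the 5 others had a median of 1.66. The DAP and the input library cannot be told apart for the 12 lists, because each DAP has 1 list.

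**Figure D3:**
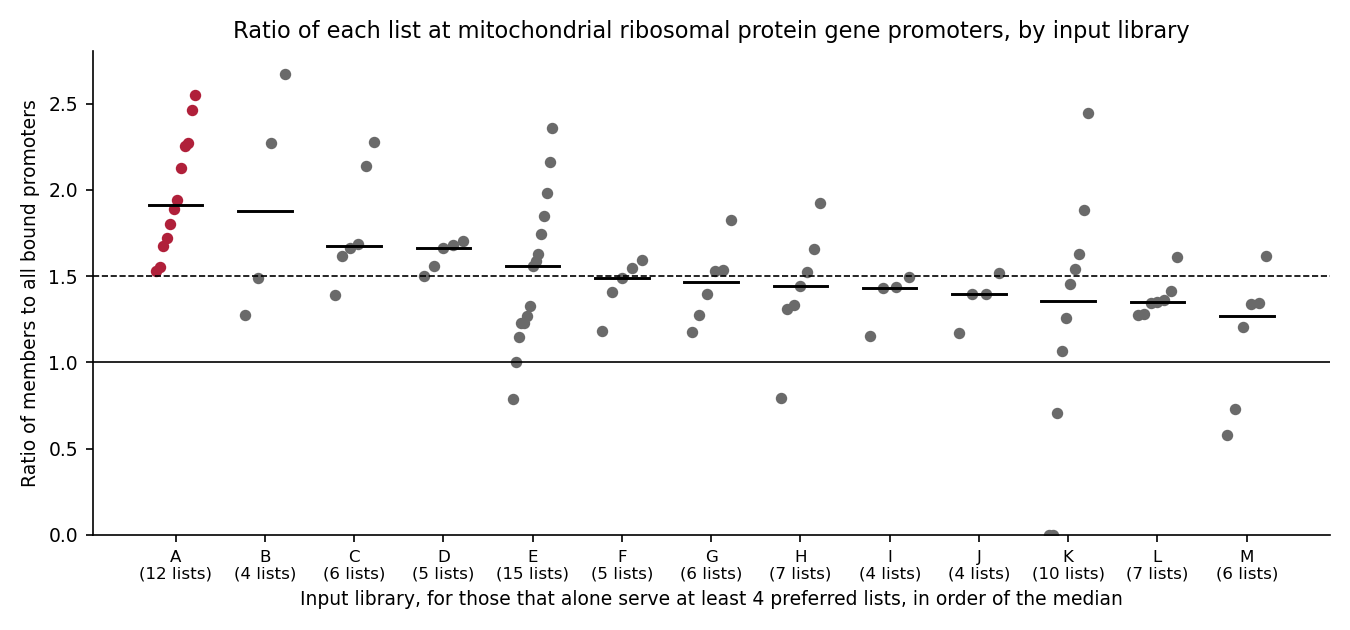
Ratio of each preferred list (vertical axis, no unit) by input library (horizontal axis), for libraries that alone serve at least 4 lists. Points are lists, bars are medians, the dashed line is a ratio of 1.5; all 12 lists of library A lie between 1.53 and 2.55, and the medians of the others run from 1.27 to 1.88.

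The ratios depended on which promoters served as the background. With the 7397 highly bound promoters and the 65 highly bound members, the median ratio over the lists was 1.05 and 6 lists were enriched, namely ZNF140 (1.71), E2F7 (1.66), ELK4 (1.60), MZF1 (1.59), ZNF284 (1.55) and NPAS2 (1.51). Among these promoters ZNF140 had peaks at 46.2% of members beside 27.0%, ELK4 at 36.9% beside 23.01% and E2F7 at 32.3% beside 19.5%. Of the 6 lists, ZNF140, E2F7 and NPAS2 used the input library with 12 lists and the others did not. The median ratio of those 12 lists in this background was 1.27.

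Lists that favored these promoters least were also named, among lists for which at least 10 members would be expected. TEAD2, a factor of the Hippo pathway, had peaks at 8 of 77 (10.4%, interval 5.36 to 19.2) where 13.2% of bound promoters had one, a ratio of 0.788, with the background inside the interval. ZFAT had peaks at 12 beside 15.5% (ratio 1.00), ZIM2 at 17 beside 19.8% (1.11) and PHTF1 at 31 beside 35% (1.15). ZNF879 had peaks at 28 beside 31.5% (1.15), and HSF4, a heat shock factor, at 41 beside 45.5% (1.17). For each of these 6 lists the interval included the background share. In the highly bound background TEAD2 fell to a ratio of 0.533, with peaks at 12.3% of members beside 23.1%.

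Long lists reached nearly every member. SALL1, a zinc finger protein and the longest list, had a peak at all 77 bound members beside 81% of bound promoters, POU2F1 at 76 beside 77.6% and ZFP91 at 76 beside 78%. ZBTB12 had peaks at 72 beside 79.6%, and MGA, a partner of MAX, at 71 beside 73.3%, a number that ZMYM4 matched. Their ratios lay between 1.17 and 1.27; a ratio cannot lie far above 1 for lists this common.

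Further lists of factors with well known binding letters varied. ELK3, a close relative of ELK4, had peaks at 42 of 77 (54.5%, interval 43.5 to 65.2) beside 34.3%, a ratio of 1.59. THAP1, a zinc-dependent DNA-binding protein, had peaks at 26 (33.8%) beside 17.5%, a ratio of 1.93, and MLXIP, a glucose-responsive bHLH protein, at 26 beside 18.3% (1.85). ZNF148 had peaks at 12 beside 9.57% (1.63) and SIX5 at 44 beside 37% (1.55). Below 1.5 came STAT5A at 61 beside 53.2% (1.49), KLF15 at 30 beside 26.8% (1.46) and E2F8, the paralog of E2F7, at 69 beside 65.9% (1.36). E4F1 had peaks at 54 beside 52.2% (1.34) and CAMTA1 at 16 beside 16.4% (1.27). E2F7 and E2F8 differ in the length of their lists, with 3347 and 31898 peaks, so their ratios are not measures of their relative preference.

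Peaks at these promoters sat close to the start. The 5402 peaks of preferred lists at the members had a median summit position of 12 bp along the gene from the TSS, with quartiles of −110 and 120 bp, and 45.7% of them were within 100 bp of the TSS. The 659188 peaks at all bound promoters had a median of −6 bp, quartiles of −213 and 148 bp and 31.4% within 100 bp. The difference lay mostly on the upstream side, where the members' lower quartile was about 100 bp closer to the start. Several lists may share a peak position at 1 promoter, so the peaks are not independent. Summit positions at highly bound promoters were not set beside these.

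**Figure D4:**
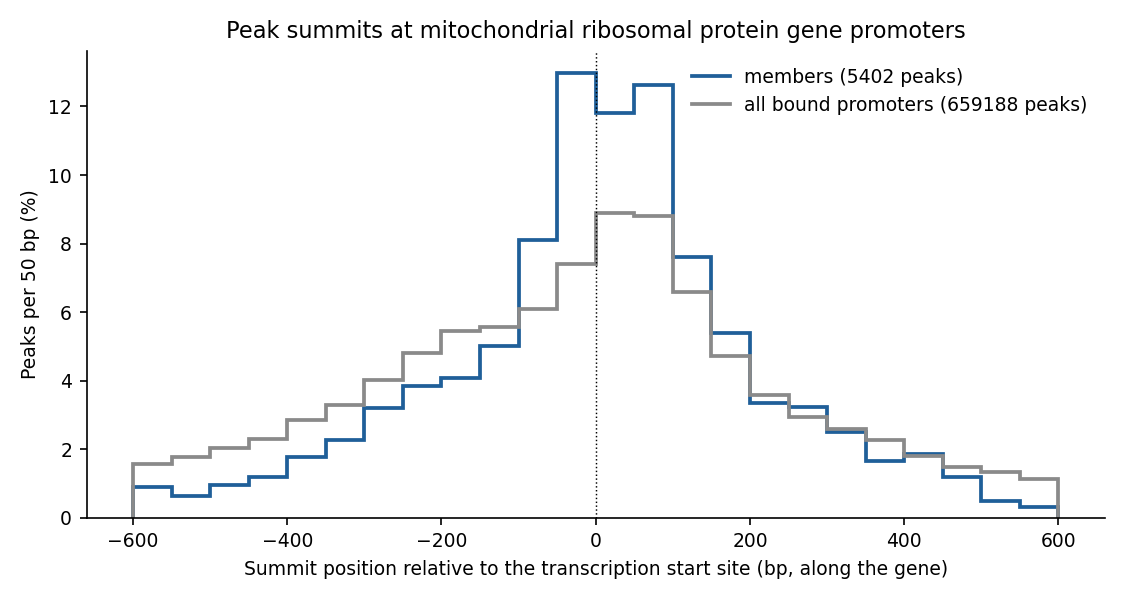
Share of peaks per 50 bp (vertical axis, percent) by the position of the summit relative to the TSS (horizontal axis, bp along the gene, drawn from −600 to 600), for members in blue and all bound promoters in gray. The members' curve is higher near 0 and lower upstream; 45.7% of the members' summits and 31.4% of all were within 100 bp.

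Signal is not scaled between lists, so each peak was ranked by its signal within its own list. In 74 of 102 lists with at least 10 members bound, the median rank of the members' peaks was above that of peaks at all bound promoters. The median over lists was a percentile of 60.3 for members and 54.5 for all bound promoters. Ranks at highly bound promoters were not set beside these, so a trait of such promoters cannot be told apart here. ZFP90 had its members' peaks at a median percentile of 68.8 beside 45.8 and E2F7 at 70.3 beside 52.1. The order was the other way for CENPBD1, at 31.5 beside 53.9, and for MZF1, at 34.0 beside 53.3. A promoter can hold more than 1 peak of a list, and with the strongest peak per promoter alone, added after the data were seen, MZF1 was at percentile 52.4 beside 60.1 and CENPBD1 at 42.0 beside 63.6. By that measure E2F7 was at 73.1 beside 56.9, ELK4 at 69.2 beside 57.0 and ZFP90 at 71.4 beside 54.0, and the members' median was higher in 81 of 102 lists.

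The strongest peaks of the 5 lists with the highest ratios are given with their rank. The top ELK4 peak among the members, with a signal of 87.7 at percentile 98.9 of its list, had its summit 29 bp before the MRPL10 TSS on chromosome 17 between 47831418 and 47831721. ELK4 was also strong at MRPS26 (percentile 95.7) and MRPL21 (percentile 91.6). E2F7 was strongest at MRPS23 (percentile 95.4), 14 bp before the TSS, then at MRPL44 (percentile 94.2) and MRPS18C (percentile 91.7). ZNF140 was strongest at MRPL44 (percentile 97.0), MRPL19 (percentile 96.8) and MRPL30 (percentile 93.5), with summits 29, 31 and 53 bp before the TSS. MZF1 was strongest at MRPL19 (percentile 97.1), MRPL52 (percentile 94.4) and MRPL53 (percentile 93.9), with summits 374, 139 and 188 bp after the TSS. The MZF1 peak at MRPL53 had a deposited score of only 547, beside 1000 at MRPL19 and MRPL52. ZNF284 was strongest at MRPL3 (percentile 96.3), MRPL55 (percentile 90.7) and MRPS7 (percentile 79.6). The E2F7 and ZNF140 peaks at MRPL44 thus lay 31 and 29 bp before the same TSS, and these 2 lists share an input library. ELK4 and ZNF284 also had summits 33 and 42 bp before this TSS, and ZNF284 had another 221 bp after it. Peaks of 98 lists lay at this promoter. MRPL44, MRPS23 and MRPL12 each had peaks of 10 of the 12 lists with the highest ratios, while MRPL28 and MRPL23 had none. Of all preferred lists, 81.0% had a peak at MRPL44, 72.7% at MRPS23 and 64.5% at MRPL12. At MRPL28 it was 2.48% and at MRPL23 0%, so these counts largely follow how many lists bound each promoter. The 12 lists were also picked for their ratios at the members, so the overlap is partly built in.

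The letters of the promoters were searched on both strands from 250 bases before the TSS to 50 after. The ETS letters CCGGAAG occurred in 32 of 78 members (41.0%, interval 30.8 to 52.1), in 18.8% of all bound promoters and in 24.96% of highly bound ones. The YY1 type letters AAGATGGC occurred in 22 of 78 (28.2%, interval 19.4 to 39.0), in 5.42% of all bound promoters and in 6.87% of highly bound ones. With the extra letter of AAGATGGCG, tried after the data were seen, the counts were 13 of 78 (16.7%), 4.004% and 5.19%. YY1 was not among the DAPs with a list, so no list of its own was examined. The shares of both kinds of letters were alike in the MRPL and MRPS genes. ETS letters occurred in 20 of 49 MRPL and 12 of 29 MRPS promoters, and YY1 type letters in 14 of 49 and 8 of 29.

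**Figure D5:**
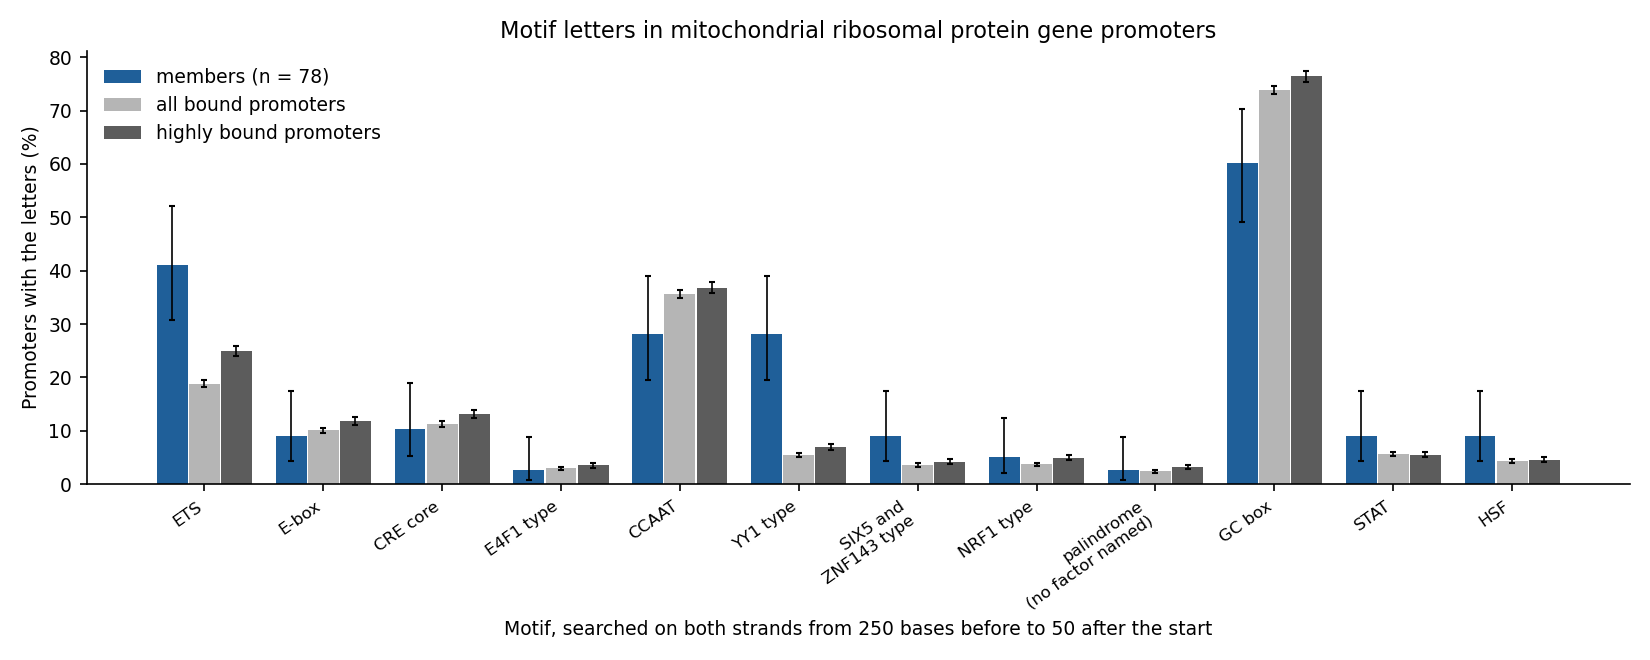
Share of promoters that hold the letters of 12 motifs (vertical axis, percent; motifs on the horizontal axis) for members, all bound promoters and highly bound promoters. Error bars are 95% Wilson intervals; the members stand above both other groups beyond the intervals for the ETS (41.0%) and YY1 type (28.2%) letters and below them for the GC box (60.3%).

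Both kinds of letters had a preferred place. Of 23 matches to the YY1 type letters in the members, 17 (73.9%) read along the gene within the 50 bases after the TSS. Their offsets were 6 to 35 bases with a median of 16. The place was common elsewhere too, with 442 of 767 matches in all bound promoters (57.6%, median offset 18) and 58.6% in highly bound ones. In 14 of the 17 member promoters the ATG inside the letters was the annotated start codon of the canonical transcript (82.4%). The same held for 309 of 442 such promoters among all bound ones (69.9%). At MRPS7, MRPS10 and MRPS18A, shown above, this start codon lies 22, 12 and 12 bases after the TSS. The same letters can therefore be part of the coding sequence, and their presence alone does not tell a DNA site from a start codon context. Of 44 matches to the ETS letters, 23 lay within the 50 bases before the TSS (52.3%), beside 39.3% of the matches in all bound promoters.

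The SIX5 and ZNF143 type letters ACTACAA occurred in 7 members (8.97%, interval 4.42 to 17.4), where 3.55% of all bound and 4.19% of highly bound promoters had them. The GC box GGGCGG lay below the background, in 60.3% of members (interval 49.2 to 70.4) beside 73.9% of all bound promoters. The CCAAT letters occurred in 28.2% beside 35.7%, the E-box CACGTG in 8.97% beside 10.1% and the CRE core TGACGT in 10.3% beside 11.3%. TTCNNNGAA of STAT proteins and GAANNTTC of heat shock factors each occurred in 7 members (interval 4.42 to 17.4) beside 5.64% and 4.32%. The background lay inside the interval for the STAT letters and just below it for the heat shock letters. Highly bound promoters had the heat shock letters in 4.54%, inside the interval. GCGCATGCG of NRF1, a regulator of nuclear genes for mitochondrial proteins, occurred in 4 members (5.13%) beside 3.69% of all bound and 4.92% of highly bound promoters. TGACGTNAC of E4F1 and the palindrome TCTCGCGA each occurred in 2 members, 2.56%, beside 2.98% and 2.42%. The E4F1 letters include the CRE core, and the longer YY1 type letters include the shorter ones. The median GC share was 59.7% beside 66.3% for all bound promoters, and the median ratio of observed to expected CpG was 0.886 beside 0.849, so the lower GC share moved with the lower count of GC boxes and its part was not tested.

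Binding of the ETS proteins was set against the ETS letters. ELK4 had a peak at 13 of 31 bound members with the letters (41.9%) and at 11 of 46 without them (23.9%), and among all bound promoters at 25.2% with and 10.4% without. ELK3 had a peak at 19 of 31 with (61.3%) and at 23 of 46 without (50.0%), beside 57.9% and 28.9%. The strongest ELK4 peak within each of the 13 promoters had its summit a median of 31 bp from the nearest ETS letters. In 8 of 13 (61.5%) it was within 50 bp. In the 645 such promoters among all bound ones the median was 63 bp, and 274 (42.5%) were within 50 bp. The distance was 9 bp at MRPL58, 21 bp at MRPS23 and 31 bp at MRPS26, and 54 and 62 bp at MRPL3 and MRPL40. It was 163 bp at MRPS18A, where the summit lay after the TSS. For ELK3 the median was 27 bp in 19 members beside 51 bp. Lists of other kinds of proteins also had summits closer to the ETS letters at the members, with 55.5 bp in 10 members beside 140 bp for E2F7, 119 bp in 7 beside 192 bp for ZNF284, 76.5 bp in 10 beside 99.5 bp for NPAS2 and 56 bp in 14 beside 85 bp for ZNF140, and for MZF1 the median was 152 bp in 11 beside 161 bp. Members with ETS letters had a median of 53 lists and those without 45.5, beside 44 and 31 among all bound promoters. Members with YY1 type letters had a median of 43.5 and those without 53, while among all bound promoters the order was reversed, with 40 and 33.

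Letters and binding did not go together for every factor. NPAS2, a bHLH protein, had no peak at the 7 bound members with an E-box and had all of its 24 at the 70 without, while among all bound promoters it had peaks at 19.5% with and 13.1% without. A count of 0 of 7 members is too small to set a level apart, since it allows a share of up to 42.9%. MLXIP had peaks at 1 of 7 with an E-box and at 25 of 70 without (35.7%), beside 25.7% and 17.4% of all bound promoters. MGA had peaks at 7 of 7 with an E-box and at 64 of 70 without (91.4%), beside 83.5% and 72.2%. SIX5 had peaks at 5 of 7 with the SIX5 and ZNF143 type letters and at 39 of 70 without (55.7%), beside 40.6% and 36.8%. STAT5A had peaks at 5 of 7 with the STAT letters and at 56 of 70 without, beside 50.7% and 53.4%. KLF15 had peaks at 20 of 46 with a GC box (43.5%) and at 10 of 31 without (32.3%), beside 28.2% and 22.8%.

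The other genes of mitochondrial translation were bound about as often, from lists of genes that were drawn up by role. Mitochondrial ribosome proteins with other symbols numbered 5, with a median of 46 lists from 37 at GADD45GIP1 to 70 at AURKAIP1, and 5 of 5 were highly bound. Assembly factors of the mitochondrial ribosome had a median of 51 lists and 20 of 24 were highly bound, from 22 at METTL15, a ribosomal RNA methyltransferase, to 99 at MTG2, a GTPase. Mitochondrial translation factors had a median of 53.5 lists and 12 of 14 were highly bound, with TACO1, an activator of COX1 translation, at 91 and the release factor MTRF1 at 10. Mitochondrial aminoacyl-tRNA synthetases had a median of 47 and 13 of 17 were highly bound, and the mitochondrial transcription and replication genes had a median of 53 and 8 of 8. Each share stands beside the background of 36.9%.

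Promoters of genes outside mitochondrial translation also had high counts. Complex I subunits of the respiratory chain had a median of 48 lists and 27 of 37 were highly bound (73.0%). Cytosolic ribosomal proteins had a median of 56 lists and 75 of 83 were highly bound (90.4%). The ratios of the 12 highest lists, formed in the same way, varied among the gene groups. At the other genes of mitochondrial translation, pooled over the 4 lists above without the transcription genes, EBF1 had a ratio of 3.12, E2F7 2.56, PRMT5 2.43, ZNF45 2.35, CENPBD1 2.30, NPAS2 2.19 and MZF1 2.18, and PEG3 had 1.98, ELK4 1.89, ZFP90 1.69, ZNF284 1.67 and ZNF140 1.42. At the cytosolic ribosomal protein promoters the ratios were 3.30 for PEG3, 2.91 for CENPBD1, 2.70 for EBF1, 2.49 for PRMT5, 2.47 for ZNF284, 2.43 for NPAS2 and 2.34 for ZNF140, and 2.06 for ELK4 and ZFP90, 2.04 for MZF1, 1.60 for ZNF45 and 1.56 for E2F7. At complex I promoters they were 2.57 for PEG3, 2.42 for PRMT5, 2.23 for MZF1, 2.17 for NPAS2, 2.05 for ELK4 and 1.94 for ZNF140, and 1.48 for EBF1, 1.22 for E2F7, 1.13 for ZNF284, 1.10 for CENPBD1, 0.957 for ZFP90 and 0.954 for ZNF45. TEAD2, at 0.788 in the mitochondrial ribosomal protein promoters, had 1.64, 2.15 and 1.23 in these 3 groups. No list among the 12 was thus high at the mitochondrial ribosomal protein promoters alone, since each had a ratio above 1.5 in at least 1 other group. That is a low bar, because TEAD2 also passed it, and ratios of these groups against highly bound promoters were not formed. These groups of genes hold few promoters each and the differences were not tested.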

How the data were processed

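Peak lists of FLAG-tagged DAPs were read as deposited. Per the study's methods the authors ran the ENCODE ChIP-seq pipeline on data made in house, on hg38 per the labels. The aligner and the peak caller were not given in the sources used here. The deposited score column ranges from 540 to 1000. The deposited signal column is not scaled between lists, so peaks were only ranked within a list. The deposited q column, treated as a score, was not used. All 1471857 peaks lay within the reference.

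Canonical TSSs came from GENCODE 44 and letters were searched in hg38. RefSeq promoter sequences matched 69 of the 78 members, 68 of them at the same base; MRPL2, MRPL10, MRPL13, MRPL15, MRPL21, MRPL23, MRPL35, MRPS28 and MRPS36 had no entry. GTPBP5 of the gene lists had no match by symbol. Python 3.11.15, numpy 2.4.6, pandas 2.3.3, scipy 1.17.1 and pysam 0.24.0 were used, and the overlap code was tested on simulated data. Members and lists were chosen with earlier results of these data known. With 1 list per DAP no test was run.

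By rule the text names the 8 members bound by most lists, those bound by fewer than 10, the 3 strongest for each of the 5 lists with the highest ratios, the 12 highest and 6 lowest lists by ratio, the 5 with most members and 14 DAPs with known letters. Other genes were named after their values were seen. Alternatives changed the window, overlap rule, score, lists, TSS, shared windows and background. RNA-seq, accessibility and reporter data were not analysed here.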

Additional observations from a re-analysis of the deposited data

Results flagged for a closer look

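The 6 lists marked by the authors as non-preferred entered no count above, and 5 of them had peaks at more than 3 of the 78 promoters, the floor used for a count of 0. TSC22D2 had peaks at 50 of them, ZZZ3 at 46, ZNF431 at 43, EP300, a histone acetyltransferase and coactivator, at 37 and ZCCHC11, a terminal uridylyltransferase also called TUT4, at 34. Of all bound promoters, 34.3% had a peak of TSC22D2, 35.5% of ZZZ3, 39.0% of ZNF431, 24.4% of EP300 and 21.5% of ZCCHC11. Over bound promoters the ratios were 1.89 for TSC22D2, 1.68 for ZZZ3, 1.43 for ZNF431, 1.97 for EP300 and 2.05 for ZCCHC11. TSC22D2, EP300 and ZCCHC11 share the input library of the 12 enriched preferred lists, and DAP and input cannot be told apart for them. GPBP1L1, with 73 peaks in all, had a peak at 0 of the 78, which allows a share of up to 3.85%. No replicate list was at hand for any of these lists, so groups of samples were not searched for outlying samples.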

How the results depend on the processing

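Read depth and replicate error are unknown, and short lists limit what an absent peak means. The median of 49 lists per promoter fell to 28.5 and the 65 highly bound promoters to 37 when only peaks with a score of 830 or more were kept, beside 16.98% of all promoters then; under the other alternatives the highly bound number was between 62 and 67 of 78, or 49 of 55 with no shared windows. The 52 enriched lists became 6 against highly bound promoters and 101 against all promoters, bound or not, and lay between 43 and 68 under the other alternatives. With the 12 lists of the shared input left out, an alternative added after the data were seen, 40 of 109 were enriched.

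Of the 33 named lists, 11 were no longer enriched against highly bound promoters and 14 became enriched against all promoters. At a score of 830 or more 8 lost and 1 gained the call. E2F7 (ratio 2.78, 9 members), ZNF284 (2.41, 8 members), MZF1 (1.97, 8 members) and NPAS2 (1.93, 8 members) lost it, as they fell below 10 members. ZNF140 (2.45, 12 members) and ELK4 (2.54, 14 members) kept the call there and against highly bound promoters. KLF15 and STAT5A, near the threshold, were enriched with windows of 250 bp (1.54 and 1.58). Limiting the search to the 68 members with the same start in RefSeq gave ETS letters in 44.1% and YY1 type letters in 30.9%. No paired analysis was possible because each DAP has 1 list and the labels give no replicate numbers.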
